A study of Mus musculus with 6 samples.

Results

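DNA methylation was described at 4 genes of the testis-specific serine kinase family of the mouse, Tssk1, Tssk2, Tssk3 and Tssk6. The cytosine positions considered were those with at least 10 reads in all 6 libraries, from 2 kb before to 2 kb past each gene on build GRCm38. Of 952515 such positions in the nuclear genome this gave 169, with 22 at Tssk1, none at Tssk2, 22 at Tssk3 and 125 at Tssk6. Each library came from the right testis of 1 mature male mouse of strain KM, an outbred stock. In 3 hemicastrated mice the left testis had been taken out before puberty, and 3 mice had a sham operation and kept both testes. Reduced representation bisulfite sequencing was used, in which DNA cut by the enzyme MspI at CCGG is treated with bisulfite, so that only methylated cytosines are still read as cytosine. The methylation level of a position is the percentage of its reads that were methylated. A whole testis mixes germ cells and somatic cells, so a change in the share of a cell type and a change of methylation within cells cannot be told apart.

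Testis-specific serine kinases are small protein kinases made in spermatids, the haploid cells that reshape themselves into spermatozoa. Several of their genes have no intron, and male mice that lack Tssk6, or both Tssk1 and Tssk2, are infertile. Methylation of CpG dinucleotides at a transcription start usually goes with a silent gene, while the promoters of many germ cell genes are kept free of it in the germ line.

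The genes differed in how many CpG dinucleotides lie before their transcription start, as the reference sequences show. The 250 bases before each start are printed 5′ to 3′ on the strand of the gene, from RefSeq on build GRCm38.p6, with CpG dinucleotides in capitals. They come from chr16:17893953-17894202 (plus strand) for Tssk1, chr16:17898387-17898636 (plus strand) for Tssk2, chr4:129490771-129491020 (minus strand) for Tssk3 and chr8:69901934-69902183 (plus strand) for Tssk6.
Tssk1: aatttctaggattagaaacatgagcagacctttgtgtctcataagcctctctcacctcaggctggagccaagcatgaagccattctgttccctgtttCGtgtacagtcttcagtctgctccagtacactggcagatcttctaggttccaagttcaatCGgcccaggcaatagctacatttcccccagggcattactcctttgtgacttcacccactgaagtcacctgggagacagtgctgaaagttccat
Tssk2: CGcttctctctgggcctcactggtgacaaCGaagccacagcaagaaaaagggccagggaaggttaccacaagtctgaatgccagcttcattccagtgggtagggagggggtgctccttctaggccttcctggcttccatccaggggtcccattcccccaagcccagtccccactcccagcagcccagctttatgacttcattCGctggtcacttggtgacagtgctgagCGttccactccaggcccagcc
Tssk3: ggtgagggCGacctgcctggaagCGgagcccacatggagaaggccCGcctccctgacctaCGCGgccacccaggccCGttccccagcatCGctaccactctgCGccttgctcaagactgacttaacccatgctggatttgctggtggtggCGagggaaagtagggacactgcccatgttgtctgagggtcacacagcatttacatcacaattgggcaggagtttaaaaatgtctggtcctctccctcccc
Tssk6: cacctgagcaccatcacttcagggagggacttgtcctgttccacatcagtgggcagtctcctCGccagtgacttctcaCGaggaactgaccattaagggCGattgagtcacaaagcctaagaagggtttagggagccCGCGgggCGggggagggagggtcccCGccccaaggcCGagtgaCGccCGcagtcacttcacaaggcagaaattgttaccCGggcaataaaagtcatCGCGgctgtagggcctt

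These stretches hold 2 CpG dinucleotides at Tssk1, 4 at Tssk2, 9 at Tssk3 and 13 at Tssk6. With the first 50 bases of the transcript added, the 300 bases hold 2, 6, 10 and 14, against a median of 7.0 over 27025 promoters of the same length. The neighbouring promoters of Tssk1 and Tssk2 were alike just before their starts: a local alignment with gaps matched 41 of 52 columns (78.8%), from -53 to -2 at Tssk1 and from -63 to -15 at Tssk2. The other pairs aligned over 12 to 23 columns. Of 4 short motifs searched on both strands of the 300 bases, Tssk6 held GGGCGG, the GC box, at -109 and -89, and TGACG, the core of the cyclic AMP response element, at -73. GGGCGG was found in 35.9% and TGACG in 21.0% of all promoters. None of the 4 genes held the full element TGACGTCA (1.88% of promoters), which contains TGACG, or TATAAA (14.2%).

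The libraries held between 69245502 and 76619701 calls in hemicastrated mice and between 64504011 and 78630942 calls in sham-operated mice. The mean level over the 952515 positions was 29.5% to 29.9% in hemicastrated mice, against 29.5% to 30.2% in sham-operated mice. In promoters of the reference table, 119279 of 119286 positions with at least 10 reads lay in a CpG. The 2 strands of a CpG are listed as separate positions.

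The Tssk genes fell at opposite ends of the methylation scale of the testis. Tssk1 and Tssk2 were nearly fully methylated in their bodies, and Tssk6 was nearly unmethylated before and past its start. Tssk3 was nearly unmethylated at its 22 measured positions, which all lay before the start given by the RefSeq promoter table. Of the 22, 12 lay within the boundaries of the gene table, and 15 lay in the neighbouring gene Fam229a. Averaged over the 6 libraries, the window of Tssk1 stood at 95.4%, that of Tssk3 at 1.64% and that of Tssk6 at 0.994%. Among 23507 gene windows with at least 3 positions, whose median level was 17.4%, only 2.56% were as high as Tssk1 or higher. Tssk3 lay at percentile 25.2 and Tssk6 at percentile 22.6. Of all gene windows, 26.2% were below 2% and 11.7% above 90%. Short genes show both extremes too: of 467 protein-coding genes under 2000 bp long, 47.5% were below 2% and 7.71% above 90%. The order of the 4 genes was Tssk1, Tssk2, Tssk3, Tssk6, with Tssk2 placed by 3 positions of at least 5 reads. Tssk3 was above Tssk6 in each of the 6 libraries, although the ranges of the 2 genes over the libraries overlapped. Tssk1 and Tssk2 also overlapped in range, and which of them was higher differed from library to library, so their order did not hold beyond the spread. The measured positions do not lie at the same place in each gene, as the gene accounts give.

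**Figure D1:**
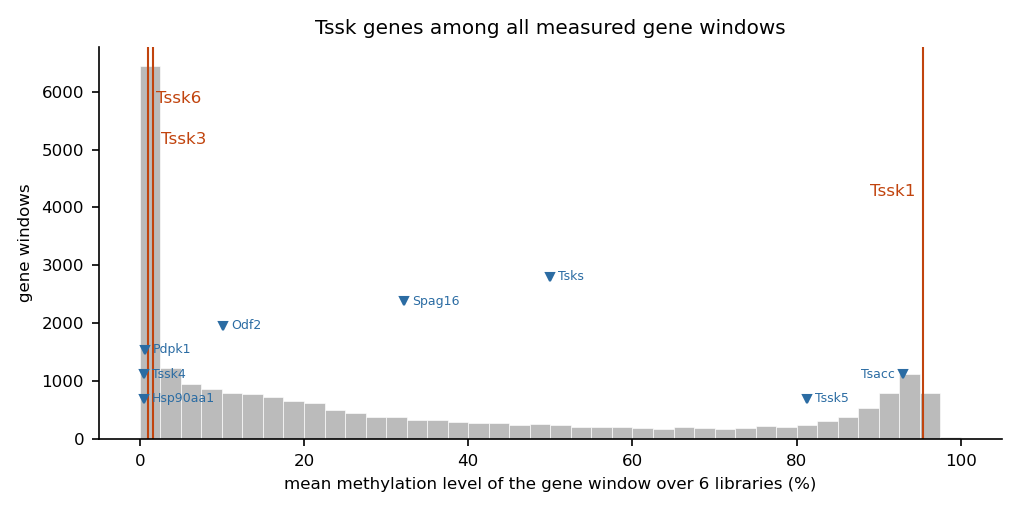
Distribution of the mean methylation level (x axis, percent, mean of 6 libraries) over 23507 gene windows (y axis, number of windows per bin). Vertical lines mark Tssk1 (95.4%), Tssk3 (1.64%) and Tssk6 (0.994%), and triangles, at arbitrary heights, mark the 8 genes of TSSK relatives, substrates and partners.

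Tssk1 (gene ID 22114) is a gene of 1451 bp on the plus strand of chromosome 16, from 17894203 to 17895653, and its kinase is found in spermatids. No other annotated gene overlaps its window. All 22 measured positions lay inside the gene, from 158 to 1105 bp past the start, and none lay before the start. Their window levels were 96.0%, 97.8% and 95.5% in hemicastrated mice, against 95.4%, 94.7% and 93.3% in sham-operated mice. The hemicastrated libraries were all higher, with the lowest of them barely above the highest sham library. Of all gene windows, 9.54% had groups that did not overlap.

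The means at Tssk1 were 96.4% ± 1.19 in hemicastrated mice, against 94.5% ± 1.08 in sham-operated mice (n = 3 each, SD), a difference of 1.93 points with a standard error of 0.930. The exact two-sided permutation test gave p = 0.1, the smallest it can give with 3 against 3. On the summed methylated and unmethylated counts, edgeR's quasi-likelihood test gave a log2 change of 0.47 with an unadjusted p of 0.0984, and an adjusted p of 1 (Benjamini-Hochberg, over all windows). That test called 0 of 23498 gene windows (0.0%), with 762 (3.24%) at an unadjusted p below 0.05, and limma called 0 with 971 below it. A larger absolute difference than that of Tssk1 was found in 15.7% of all windows. The difference at Tssk1 was 1.26 points without hemicastrated replicate 2, 1.07 points (exact permutation p = 0.7) with positions of at least 5 reads, and 0.879 points with 5 kb on each side of the gene.

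The positions of Tssk1 formed a dense cluster and a pair far from it. The 20 positions within 126 bp from 17894361 to 17894486 had 96.5%, 98.2% and 96.7% in hemicastrated mice, against 95.9%, 95.6% and 93.6% in sham-operated mice. The pair at 17895307 and 17895308 had 90.9%, 93.5% and 83.1% in hemicastrated mice, against 89.9%, 86.4% and 89.6% in sham-operated mice. The cluster was thus the more methylated one in every library, and the groups did not overlap in the cluster but did in the pair. Positions on 1 strand of the cluster have almost the same number of reads in a library, for example 30, 32 and 52 in hemicastrated mice, against 39, 49 and 23 in sham-operated mice, at 17894377. At 17894449 they were 31, 33 and 52 in hemicastrated mice, against 39, 50 and 22 in sham-operated mice. Positions of the cluster may therefore rest on shared reads and are not separate observations.

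Single positions of Tssk1 lay between 86.8% and 98.9% on average, and 21 of 22 were above 90%. The highest was 17894468, 265 bp past the start, at 100%, 100% and 100% in hemicastrated mice, against 100%, 98.0% and 95.5% in sham-operated mice. The lowest was 17895308, at 88.1%, 95.0% and 76.7% in hemicastrated mice, against 88.4%, 85.7% and 86.8% in sham-operated mice. Its spread was wide in hemicastrated mice, with the highest and the lowest library of all 6 among them. The groups did not overlap at 2 of the 22 positions, against 5.18% of all positions. At 17894377, 174 bp past the start, levels were 96.7%, 96.9% and 100% in hemicastrated mice, against 94.9%, 91.8% and 87.0% in sham-operated mice. At 17894449, 246 bp past the start, they were 100%, 100% and 96.2% in hemicastrated mice, against 94.9%, 92.0% and 90.9% in sham-operated mice. Both lie in the cluster, on the same strand. The smallest unadjusted p of edgeR's test at Tssk1 was 0.0789, at 17894377, with an adjusted p of 0.841. On the other side, 17894463 had 93.5%, 100% and 88.5% in hemicastrated mice, against 100%, 98.0% and 95.5% in sham-operated mice, with an unadjusted p of 0.157 in edgeR's test. Next to 17894449, on the other strand of the same CpG, 17894450 had 93.5%, 100% and 91.4% in hemicastrated mice, against 97.7%, 97.5% and 100% in sham-operated mice. The 2 strands of that CpG thus differed between the groups in opposite directions, neither passing the test.

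The stretch just past the start of Tssk1 stood high among genes measured there. Of 9802 genes with at least 3 positions in the first 1200 bp past their start, the median level was 0.565% and 2.55% were above 90%. Tssk1, at 95.4%, lay at percentile 99.4 of them. High levels were more frequent where the promoter held few CpG dinucleotides: of 208 genes with at most 2 in the 300 bases, as at Tssk1, 32.7% were above 90%, with a median of 50.3%. The share was 11.6% of 1410 genes with 3 to 9 and 0.232% of 8184 genes with at least 10. The promoter of Tssk1 itself was covered by 4 calls in all libraries together, 2 of them methylated, and its level is not known from these data.

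**Figure D2:**
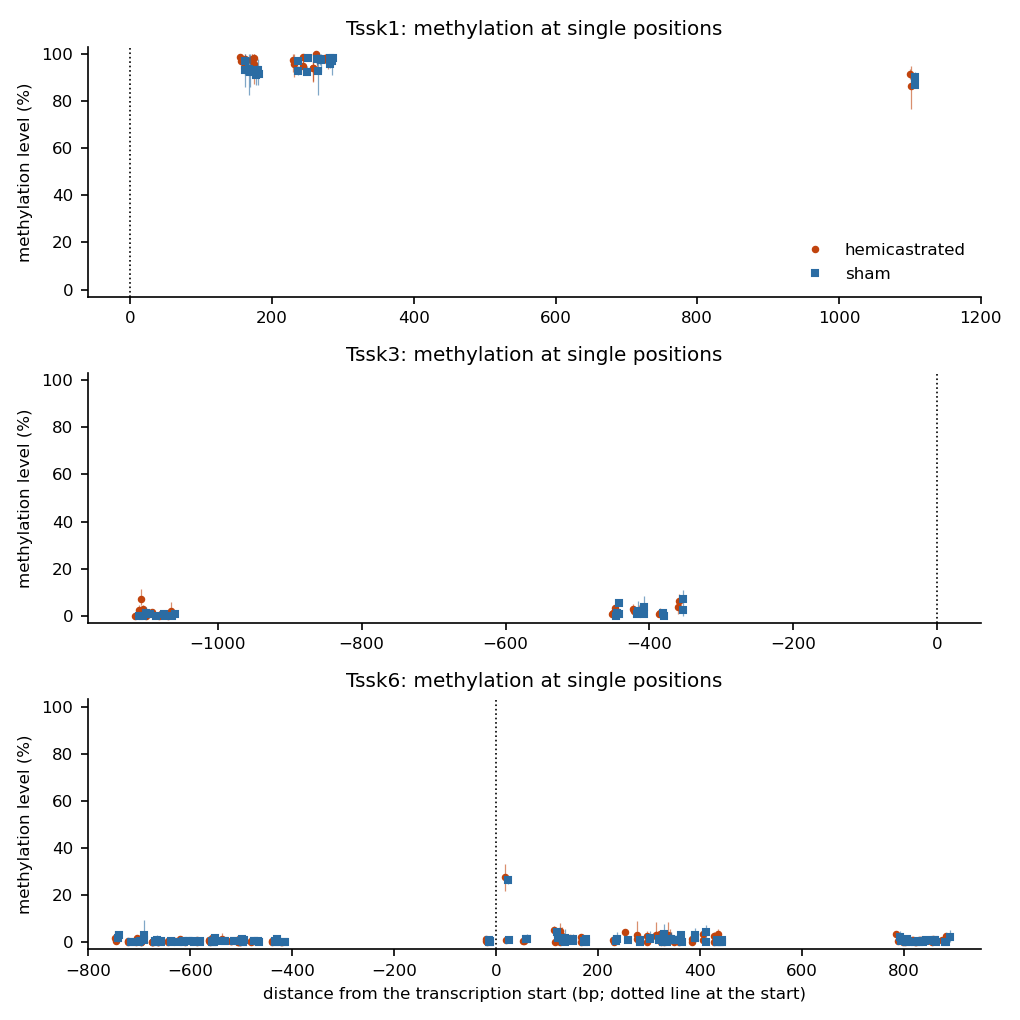
Methylation level (y axis, percent) of every measured position of Tssk1, Tssk3 and Tssk6 by its distance from the transcription start (x axis, bp, in the direction of transcription, dotted line at the start). Points are means of 3 hemicastrated or 3 sham-operated mice, moved 3 bp to either side of the position, and thin lines run from the lowest to the highest library. No library is below 76.7% at any Tssk1 position, and at Tssk6 a single position 21 bp past the start stands out.

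Tssk2 (gene ID 22115) is a gene of 1388 bp on the same strand, from 17898637 to 17900024 of chromosome 16, and its kinase binds and phosphorylates the substrate protein Tsks together with that of Tssk1. Its window overlaps Ess2, which encodes a protein of the spliceosome. Although 79 positions were listed in its window, none had 10 reads in all 6 libraries, so Tssk2 has no value by the measure used for the other genes. The calls inside the gene, summed, were methylated in 93.7% of 95, 92.8% of 97 and 93.1% of 130 in hemicastrated mice, against 88.0% of 83, 95.1% of 142 and 92.2% of 115 in sham-operated mice. The Wilson 95% intervals ran from 85.8% to 97.1% over the hemicastrated and from 79.2% to 97.6% over the sham libraries. The hemicastrated values lay within the range of the sham values. Together 614 of 662 calls (92.7%) were methylated, against 5577 of 5937 (93.9%) in Tssk1 summed the same way. These intervals hold for counting error alone, since any copies made by PCR that were not removed are counted as separate reads.

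Of the positions of Tssk2, 3 had at least 5 reads in every library, 977, 1001 and 1018 bp past the start. Their mean levels were 100%, 96.7% and 92.9% in hemicastrated mice, against 90.3%, 95.2% and 96.7% in sham-operated mice. The groups overlapped, at 96.5% ± 3.57 in hemicastrated mice, against 94.1% ± 3.34 in sham-operated mice (n = 3 each, SD; difference 2.44 points, standard error 2.82, exact permutation p = 0.5). In the 300 bases around the start, 26 of 26 calls were methylated, 7, 3 and 4 in hemicastrated mice, against 0, 0 and 12 in sham-operated mice. These promoter calls cannot compare the groups, as 2 sham libraries have none.

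**Figure D3:**
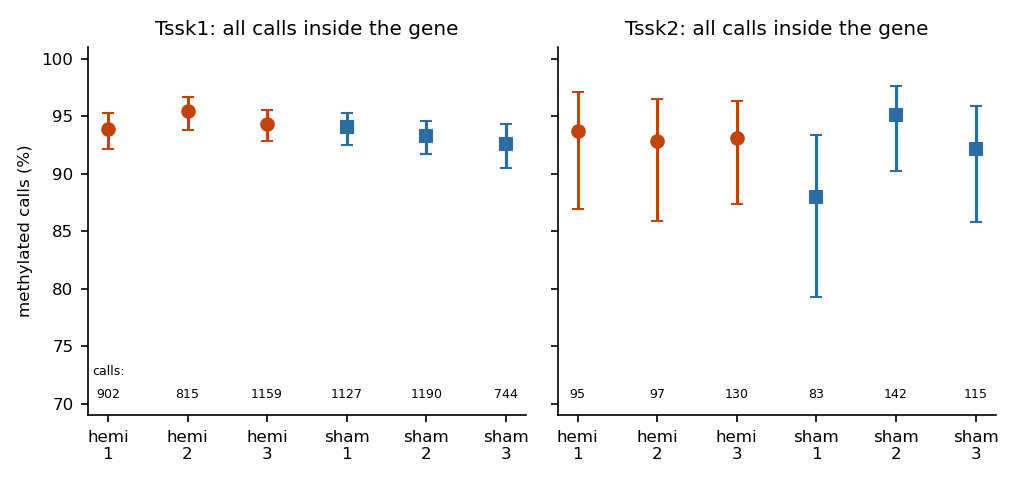
Share of methylated calls inside Tssk1 and Tssk2 (y axis, percent, starting at 69) in each library, hemicastrated then sham, with Wilson 95% intervals as bars and the number of calls printed at the foot. All 12 values lie between 88.0% and 95.5%, and the intervals are wide at Tssk2, which has 83 to 142 calls per library.

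Tssk3 (gene ID 58864), whose kinase is also made in spermatids, lies on the minus strand of chromosome 4, and the gene table gives it 2723 bp from 129489008 to 129491730. The RefSeq promoter table places its start at 129490770, inside those boundaries. All 22 measured positions lay before that start, from -1112 to -356 (bp, with negative numbers before the start). Of these, 12 lay within the table's gene boundaries and 10 outside, and 15 lay in the neighbouring gene Fam229a, whose window holds the same 22 positions. Bsdc1 also overlaps the window. Levels at Tssk3 were 2.82%, 1.33% and 1.64% in hemicastrated mice, against 1.24%, 1.66% and 1.15% in sham-operated mice. Hemicastrated replicate 1 was the highest, and the other libraries of both groups were intermixed.

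The means at Tssk3 were 1.93% ± 0.787 in hemicastrated mice, against 1.35% ± 0.274 in sham-operated mice (n = 3 each, SD), a difference of 0.584 points with a standard error of 0.481 (exact two-sided permutation p = 0.3). EdgeR's test of the summed counts gave a log2 change of 0.69, an unadjusted p of 0.0877 and an adjusted p of 1. Without hemicastrated replicate 1 the difference was 0.138 points, and without hemicastrated replicate 2 it was 0.884. With the strands of each CpG merged it was 0.984 (exact permutation p = 0.1, the smallest possible). Positions inside Fam229a had 2.41%, 1.42% and 1.28% in hemicastrated mice, against 0.979%, 0.944% and 0.453% in sham-operated mice. There the groups did not overlap, with a difference of 0.910 points and an exact permutation p of 0.1, the smallest possible. The 7 positions outside Fam229a had 3.71%, 1.14% and 2.41% in hemicastrated mice, against 1.79%, 3.19% and 2.63% in sham-operated mice. In those the difference was -0.116 points (exact permutation p = 0.9). The split by Fam229a was made after the values were seen.

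The 10 positions farthest before the start of Tssk3, from 129491832 to 129491882, averaged 1.67% ± 0.790 in hemicastrated mice, against 0.386% ± 0.508 in sham-operated mice (n = 3 each, SD). The 12 nearer ones, from 129491126 to 129491219, averaged 2.15% ± 0.864 in hemicastrated mice, against 2.15% ± 0.709 in sham-operated mice. The highest single position was the one nearest to the start, 129491126, with 9.38%, 2.78% and 6.90% in hemicastrated mice, against 4.17%, 6.25% and 11.1% in sham-operated mice. Both groups spanned a wide range there. The smallest p was at 129491873 (-1103), with 11.4%, 4.55% and 5.45% in hemicastrated mice, against 3.85%, 0% and 0% in sham-operated mice (edgeR, unadjusted p of 0.0723, adjusted p = 0.841). The sham libraries with 0% had 51 and 32 reads there, which allow levels of up to 5.88% and 9.38% by the limit of 3 reads. No position of Tssk3 had an unadjusted p below 0.05, and 2 were methylated in no read of any library.

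Around the start of Tssk3 itself coverage was thin, with 39 calls in the 300 bases and 5 of them methylated. Between the gene boundaries, 3.02% of 7342 calls were methylated. Over the whole window it was 10.4% of 11850 calls, between 7.60% and 12.4% per library. Positions that lacked 10 reads in some library were thus, as a whole, more methylated than the 22 that had them in all.

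Tssk6 (gene ID 83984), whose kinase is needed in mice for the exchange of histones for protamines in spermatids, is a gene of 1335 bp on the plus strand of chromosome 8, from 69902184 to 69903518. Its 125 measured positions ran from 744 bp before to 886 bp past the start, with a median of 74.0 reads. None lay between -417 and -17, so that most of the stretch printed before its start was not measured. In the 300 bases around the start, 6 of 26 listed positions were measured, and 2 of the 13 CpG dinucleotides before the start were among them, at -17 to -14. Of the 125 positions, 92 lay inside Ndufa13, a gene of the other strand that encodes a subunit of respiratory complex I. The levels of Tssk6 were 1.46%, 0.951% and 0.889% in hemicastrated mice, against 0.944%, 0.868% and 0.854% in sham-operated mice. Hemicastrated replicate 1 again stood above the others, and the remaining libraries of both groups lay between 0.854% and 0.951%. The means were 1.10% ± 0.312 in hemicastrated mice, against 0.889% ± 0.0483 in sham-operated mice (n = 3 each, SD), a difference of 0.210 points with a standard error of 0.182 (exact two-sided permutation p = 0.2). In edgeR's test the log2 change was 0.30, with an unadjusted p of 0.133 and an adjusted p of 1. Without hemicastrated replicate 1 the difference was 0.0312 points, and without hemicastrated replicate 3 it was 0.315.

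**Figure D4:**
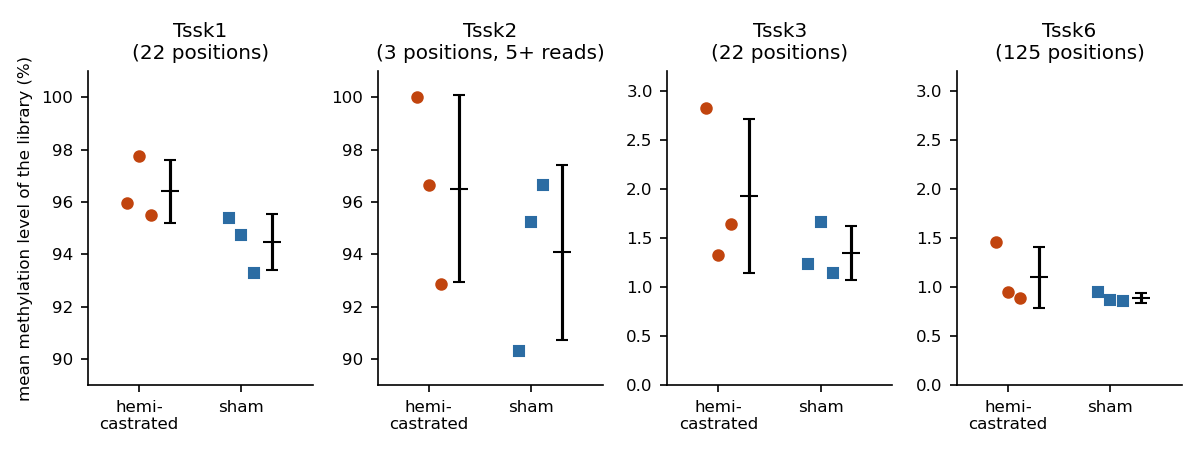
Mean methylation level (y axis, percent; from 89 at Tssk1 and Tssk2 and from 0 at Tssk3 and Tssk6) of each library, hemicastrated left and sham right, with the group mean and SD as black bars (n = 3 each). The groups do not overlap at Tssk1, and at Tssk3 and Tssk6 hemicastrated replicate 1 (2.82% and 1.46%) is the highest point.

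Methylation was lowest at the measured positions before the start of Tssk6 and slightly higher past it. Of the 55 positions before the start, 51 lay from -744 to -417 and the other 4 from -17 to -14. Together they had 0.430% ± 0.0951 in hemicastrated mice, against 0.434% ± 0.182 in sham-operated mice, and the 70 positions inside the gene had 1.63% ± 0.564 in hemicastrated mice, against 1.25% ± 0.181 in sham-operated mice (n = 3 each, SD). Those before the start were thus near the level of mitochondrial DNA, 0.478% to 0.617% per library, which is taken as nearly unmethylated. Around and past the start, the 51 positions from -17 to +440 averaged 1.94% ± 0.809 in hemicastrated mice, against 1.50% ± 0.232 in sham-operated mice. The 23 positions from +788 to +886 averaged 0.771% ± 0.315 in hemicastrated mice, against 0.525% ± 0.210 in sham-operated mice. Of the 125 positions, 112 were below 2% and 124 below 5%, and 15 were methylated in no read. In the first 1200 bp past the start, Tssk6 (1.44%) lay at percentile 82.4 of the 9802 genes. The values inside the gene, from -17 to +440 and in the first 1200 bp are raised by 69902205, 21 bp past the start, which averaged 27.1%.

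The exception at Tssk6 was one strand of a single CpG, 21 bp past the start. The 21 reference bases of chr8:69902195-69902215 (plus strand, GRCm38.p6, RefSeq) are shown because this CpG, in capitals, differed between its strands in all 6 libraries.
Tssk6 at +21: catgggggcaCGggggtgcag
The cytosine of the plus strand, at 69902205, was methylated in 40 of 121, 39 of 138 and 26 of 119 reads in hemicastrated mice, against 37 of 132, 35 of 141 and 30 of 113 reads in sham-operated mice. These are levels of 33.1%, 28.3% and 21.8% in hemicastrated mice, against 28.0%, 24.8% and 26.5% in sham-operated mice. The cytosine of the minus strand, at 69902206, was methylated in 0 of 59, 0 of 78 and 2 of 74 reads in hemicastrated mice, against 1 of 83, 1 of 73 and 0 of 50 reads in sham-operated mice. The lowest Wilson 95% bound of the plus strand was 15.4%, and the highest of the minus strand was 9.33%, so that the intervals did not meet in any library. The difference between strands was 26.2 points on average. It reached 20 points in 967 of 383295 CpGs with both strands measured (0.252%), in 1 of 64 at Tssk6, and in none of 11 at Tssk1 and 6 at Tssk3. Between the groups the plus strand did not differ beyond its spread, at 27.7% ± 5.62 in hemicastrated mice, against 26.5% ± 1.61 in sham-operated mice (n = 3 each, SD; exact permutation p = 0.7). The next highest position of Tssk6 averaged 4.72%. Without 69902205 the window averaged 0.884% ± 0.276 in hemicastrated mice, against 0.682% ± 0.0399 in sham-operated mice (n = 3 each).

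**Figure D5:**
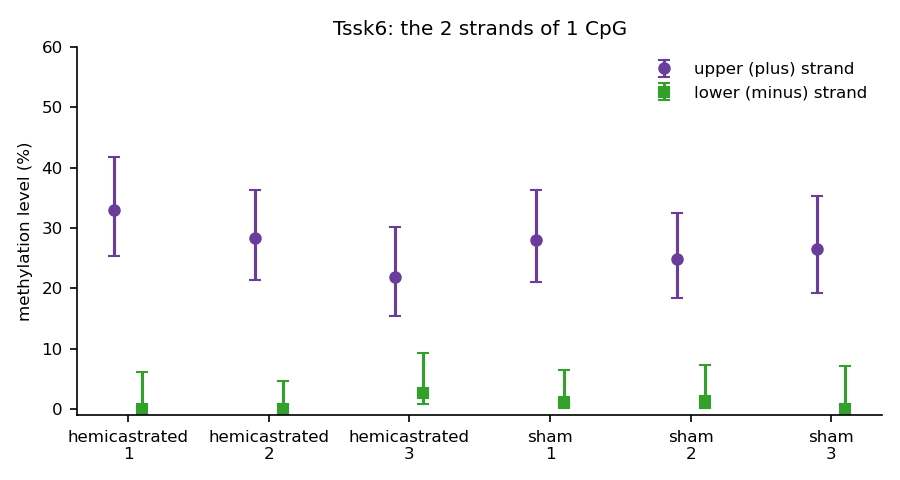
Methylation level (y axis, percent) of the plus (upper) and minus (lower) strand of the CpG 21 bp past the start of Tssk6 in each library (x axis), with Wilson 95% intervals as bars. The plus strand lies between 21.8% and 33.1% and the minus strand between 0% and 2.70%.

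Over the 3 genes with data, no single position passed the test between the groups. EdgeR's test called 0 of the 152 positions tested, the smallest adjusted p being 0.841, against 706 of 814966 positions over the genome (0.0866%). An unadjusted p below 0.05 was found at 5 positions, all at Tssk6 and higher in hemicastrated mice, against 2.62% of all positions tested. The groups did not overlap at 11 of the 169 positions, 10 of them higher in hemicastrated mice, against 5.18% of all positions. By the group means, 95 positions were higher in hemicastrated mice, 56 were lower and 18 were equal. Of the 95, 68 were at Tssk6. The share of all positions that lean each way was not calculated, so these directions have no background to be read against. Positions on the 2 strands of a CpG, or on shared reads, are not separate observations.

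The 2 smallest p at Tssk6 came from positions near 0. At 69903043, 859 bp past the start, levels were 1.35%, 1.23% and 0.667% in hemicastrated mice, against 0% of 174, 148 and 160 reads in sham-operated mice (edgeR, unadjusted p of 0.0172, adjusted p = 0.841). At 69902167, 17 bp before the start, they were 0.826%, 1.45% and 1.71% in hemicastrated mice, against 0% of 132, 141 and 113 reads in sham-operated mice (edgeR, unadjusted p of 0.0185, adjusted p = 0.841). Taken alone, each sham library allows, by the limit of 3 reads, up to 1.72% to 2.03% at 69903043 and up to 2.13% to 2.65% at 69902167. These limits are above every value of the hemicastrated libraries. The sham libraries together would allow less, and that limit was not calculated. On the other side, 69901441 (-743) had 1.32%, 0% and 0% in hemicastrated mice, against 3.30%, 0.980% and 4.82% in sham-operated mice (edgeR, unadjusted p of 0.0619). At 69903042, the other strand of the CpG at 69903043, levels were 0%, 0% and 0% in hemicastrated mice, against 0.769%, 1.67% and 0% in sham-operated mice (edgeR, unadjusted p of 0.0559). The 2 strands of this CpG thus pointed in opposite directions too.

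Hemicastrated replicate 1 also had the highest mean level over a list of genes with promoters that carry methylation in somatic cells but not in male germ cells. Of 8 such genes 6 were measured, and their windows, which include gene bodies, averaged 29.5%, 23.0% and 23.6% in hemicastrated mice, against 23.0%, 22.3% and 22.1% in sham-operated mice. At Mael, a gene of the piRNA pathway, levels were 32.1%, 18.3% and 19.9% in hemicastrated mice, against 16.5%, 19.2% and 18.7% in sham-operated mice. That library was the highest at each of the 6 genes except Asz1, where it had 66.3%, against 67.2% in sham replicate 2. At Slc25a31, which encodes an ADP/ATP carrier of the germ cell mitochondrion, the groups did not overlap, with 23.6%, 21.7% and 23.4% in hemicastrated mice, against 16.6%, 17.6% and 19.9% in sham-operated mice (exact permutation p = 0.1, the smallest possible). Groups did not overlap in 9.54% of all gene windows. All 6 genes had a higher mean in hemicastrated mice, none was called by edgeR's test, and Ddx4 and Tex12 had no value. Hemicastrated replicate 1 enters each of these means, and how many would stay higher without it was not calculated. At the 5 imprinted genes whose control regions carry maternal methylation, the list mean of the same library did not stand apart, the means being 32.9%, 31.6% and 27.8% in hemicastrated mice, against 29.0%, 30.3% and 33.4% in sham-operated mice. Hemicastrated replicate 1 was the highest of the 6 libraries at Peg10 (26.6%) and Plagl1 (11.9%), but not at Peg3, Snrpn or Mest. H19 was not measured. The part of this library's cell makeup in the values of Tssk3 and Tssk6 was not tested.

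The relatives, substrates and partners of these kinases spanned the whole range of levels, and none of the 8 passed the test between the groups. EdgeR's test called 0 of 8, with 4 higher and 4 lower in hemicastrated mice and a median difference of 0.00723 points, against -0.00145 points over all windows. Tssk4, of the same kinase family, was unmethylated like the measured positions of Tssk3 and Tssk6, at 0.520% ± 0.170 in hemicastrated mice, against 0.534% ± 0.190 in sham-operated mice (49 positions). Tssk5, on only 4 positions, had 83.4% ± 4.15 in hemicastrated mice, against 79.2% ± 1.86 in sham-operated mice. Tsks, the substrate of the kinases of Tssk1 and Tssk2, stood in the middle, at 50.0% ± 1.42 in hemicastrated mice, against 49.8% ± 1.90 in sham-operated mice. Tsacc, a co-chaperone of the Tssk6 kinase, was nearly fully methylated, at 91.7% ± 3.17 in hemicastrated mice, against 94.3% ± 2.50 in sham-operated mice (n = 3 each, SD). Thus the kinase gene Tssk6 and the gene of its co-chaperone lay at opposite ends. Odf2, which encodes a protein of the outer dense fibres of the tail, averaged 9.97% in hemicastrated mice, against 10.2% in sham-operated mice, and Spag16, of the axoneme, 31.9% in hemicastrated mice, against 32.5% in sham-operated mice. The chaperone gene Hsp90aa1 averaged 0.540% in hemicastrated mice, against 0.477% in sham-operated mice. The kinase gene Pdpk1 averaged 0.619% in hemicastrated mice, against 0.590% in sham-operated mice, so that both of these broadly used genes were unmethylated as well.

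Other kinases of male germ cells were measured for 6 of 7 genes, Stk31 being without a value, with 4 higher, 2 lower and 0 called. Their window means ran from Stk33, at 0.429% in hemicastrated mice, against 0.337% in sham-operated mice, to Mak, at 59.2% in both groups. Camk4, a kinase needed for spermatid maturation in mice, had the largest difference of this list, with 24.5%, 25.0% and 26.0% in hemicastrated mice, against 25.8%, 28.4% and 28.3% in sham-operated mice. Its groups overlapped. Of 6 regulators of transcription in spermatids 5 were measured, 4 higher and 1 lower, with 0 called. Crem, a master switch of spermatid genes, was unmethylated, at 0.480% in hemicastrated mice, against 0.397% in sham-operated mice. Sox30 had an unadjusted p of 0.000231 in edgeR's test of the summed counts and an adjusted p of 0.680. In that test 3.24% of all windows had an unadjusted p below 0.05. The unweighted mean over its positions, an unlike measure, was 7.00% ± 0.571 in hemicastrated mice, against 7.18% ± 0.535 in sham-operated mice (n = 3 each, SD). By that mean the groups overlapped (exact permutation p = 0.8). Among genes that overlap the Tssk windows, Ndufa13 had 1.82% in hemicastrated mice, against 1.60% in sham-operated mice, Bsdc1 had 58.0% in both groups, and Ess2 had 22.8% in hemicastrated mice, against 23.2% in sham-operated mice.

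Likeness of windows was measured as the root mean square difference of the levels over the 6 libraries, in points, among 23502 windows that share no position with a Tssk gene. Closest to Tssk1 were Dppa5a at 0.571, Arnt2 at 0.601 and Il17c at 0.622, and 30 windows lay within 1 point. Closest to Tssk3 were Gm20675 at 0.176, Zfp503 at 0.296 and Hoxc9 at 0.320, with 1238 windows within 1 point. Closest to Tssk6 were Gm52630 at 0.0831, Gm867 at 0.0939 and the transfer RNA gene n-TVaac8 at 0.108, with 5947 windows within 1 point. Fewer windows lay within 1 point of Tssk1, but these counts cannot tell whether its pattern is rarer, since the limit is the same at every level. Of all gene windows, 6448 had levels below 2.5%, like Tssk3 and Tssk6, and 789 had levels from 95.0% to 97.5%, like Tssk1. The SDs of hemicastrated and sham libraries were 1.19 and 1.08 points at Tssk1, above the limit itself. They were 0.787 and 0.274 at Tssk3, and 0.312 and 0.0483 at Tssk6.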

How the data were processed

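The authors deposited, for each of the 6 libraries, a list of cytosine positions with 2 counts of reads, methylated and unmethylated, and a level in percent, per the file headers. The deposited counts are raw, and the percent is the share of methylated reads at the position. The submitters' processing notes name TopHat2 2.0.11, build GRCm38 and Bismark, with no role for any of them. The version of Bismark, as well as any trimming or removal of duplicates, was not given in the sources used here, whose lists name neither strand nor sequence context. Each library came from 1 mouse, per the labels' protocols.

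Only positions that had 10 reads or more in each of the 6 libraries were used. A window was a gene with 2 kb on each side, and its level in a library was the unweighted mean over its positions. The means of the groups were set against each other in exact permutation tests, two-sided, with scipy 1.17.1. Methylated and unmethylated counts were tested with edgeR 4.0.16 in R 4.3.3 by the quasi-likelihood F test, in a model with terms for each library, for methylation and for its change with the group. P-values were adjusted by Benjamini-Hochberg over all windows with at least 3 positions, or over all positions, and called at 0.05. Features without any methylated read, or without any unmethylated one, could not be tested, and in the single-position test all positions shared 1 estimate of the spread. The edgeR tests were also run on simulated counts with large shifts at intermediate levels. That run does not cover small differences at levels like those of the Tssk windows. Gene boundaries, strands, starts and promoter sequences came from RefSeq tables of GRCm38, and alignments were made with Biopython 1.88. Positions are counted from the transcription start in the direction of transcription, the first transcribed base being 0.

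The 4 genes and the gene lists were chosen with earlier results of these data known. Named positions were, per gene, those past 0.05 after adjustment, those with the 2 smallest p in each direction, and the highest and the lowest by mean level. Of each list every measured gene could be named, and likeness named the nearest 3 windows. Replicate numbers were checked for pairing: the deviations of same-numbered libraries from their group means correlated at 0.0251, 0.0277 and -0.00643 across positions, so the numbers were not taken as pairs. Alternatives changed the read minimum, the flank, the weighting, the merging of strands, the minimum number of positions, the test (limma 3.58.1), the prior and the replicate block, or left out each library in turn.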

Additional observations from a re-analysis of the deposited data

How the results depend on the processing

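The direction of the mean window difference, hemicastrated minus sham, was kept under all 13 alternatives at Tssk1 (0.879 to 2.39 points) and all 15 at Tssk6 (0.0312 to 0.315 points). At Tssk3 it was kept under 13 of 14, the exception being the positions outside Fam229a (-0.116 points). Some of these alternatives could not change the direction. A flank of 1 kb held the same positions at all 3 genes, as did 5 kb and at least 5 reads at Tssk6, and at least 20 reads at Tssk3. The replicate block returns the main difference by construction. At Tssk1, where the groups did not overlap, leaving out 1 library cannot reverse it. Leaving out 1 library in turn gave 1.26 to 2.39 points at Tssk1, 0.138 to 0.884 at Tssk3 and 0.0312 to 0.315 at Tssk6, the lowest values of Tssk3 and Tssk6 being those without hemicastrated replicate 1. The log2 change of the Tssk1 window was -0.0064 with 5 kb on each side, and that of position 69902205 at Tssk6 was -0.11 without hemicastrated replicate 1, within -0.11 to 0.29 over the libraries left out. The cause of these changes was not tested. The number of gene windows called, 0 in all, was between 0 and 1 when 1 library was left out, 1 being found without hemicastrated replicate 1 and without hemicastrated replicate 3. The number of single positions called, 706 in all, was 446 with a robust prior, 147 with limma and 540 to 775 with 1 library left out. No window or position of a Tssk gene was called under any of these alternatives. With the replicate number as a block, 1 window and 650 positions were called, none at a Tssk gene, and the exact sign permutation over the 3 pairs gave p = 0.25 at Tssk1 and Tssk6, the smallest it can give, and p = 0.5 at Tssk3.

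With 3 mice a group, the exact tests cannot reach 0.05. Few reads fell on Tssk2 and on the promoters of Tssk1, Tssk2 and Tssk3, so these parts are limited most. Most of the promoter of Tssk6 was not measured either. The reason for the few reads was not tested. At a position with under 100 reads, a single read moves the level by more than a point. Splits by Fam229a and Ndufa13, and the window without 69902205, were chosen after seeing the data.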
